A study of Rattus norvegicus with 4 samples.

Results

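The genes described are the 3 D cyclins Ccnd1, Ccnd2 and Ccnd3, the kinases Cdk2 and Cdk4, and the inhibitors Cdkn1a (p21) and Cdkn1b (p27), all of which act in the G1 phase of the cell cycle. They are 7 of the 14217 genes named on the array, taken by exact gene symbol with every probe set of each gene, which gave 12 probe sets. Expression had been measured in primary granulosa cells, the steroid-producing somatic cells of the ovarian follicle, on 4 rat microarrays with 1 array per group. The groups were FOXOA3 FSH (adenovirus with a constitutively active FOXO1, then follicle-stimulating hormone at 100 ng/ml), FOXOA3-mDBD FSH (the same protein with a mutated DNA-binding domain, then FSH), GFP FSH (control adenovirus with green fluorescent protein, then FSH) and GFP vehicle (control adenovirus, no FSH). All cells came from estradiol-treated female Sprague-Dawley rats 23 to 25 days old, were infected for 4 h and were then cultured for 24 h with hormone or vehicle in serum-free medium on serum-coated dishes. The FOXO1 vectors were measured only with FSH, and neither an uninfected culture nor a FOXO1 vector with vehicle is among the groups. Whether a culture pooled several animals is not stated in the labels.

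D cyclins bind and activate Cdk4 and its relative Cdk6, and the active kinases phosphorylate the retinoblastoma protein, which releases E2F factors and lets the cell enter S phase. Cdk2, with cyclin E and then cyclin A, completes that step. Cdkn1a and Cdkn1b bind cyclin-kinase complexes and restrain Cdk2. In granulosa cells cyclin D2 is the D cyclin best known for its link to FSH, since female mice without Ccnd2 have granulosa cells that divide poorly in response to the hormone, and Cdkn1b is known in other cell types as a gene that FOXO factors activate.

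The values were MAS5 signals on a linear scale, and a signal counted as above the floor when it exceeded 100.5, the median of all rat probe sets over the 4 arrays. A gene was counted as 2-fold apart between groups when the ratio of its signals, with values under the floor raised to it, was 2 or more. With 1 array per group no difference has a replicate check and none was tested. A single array per group limits the precision throughout. Signals of different probe sets are not comparable as levels, so that only differences between arrays are described. In these bulk cultures, less RNA per cell and fewer cells of a type cannot be told apart.

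The 4 arrays differed in their control transcripts. Poly-A spikes are bacterial RNAs added to a sample ahead of labelling. Their geometric mean was 22.6 on FOXOA3 FSH, 539 on FOXOA3-mDBD FSH, 395 on GFP FSH and 21.4 on GFP vehicle. Arrays with bright spikes are thus FOXOA3-mDBD FSH and GFP FSH, and arrays with dim spikes are FOXOA3 FSH and GFP vehicle. Hybridisation controls had geometric means of 1224, 2855, 2759 and 1647 in the same order of groups, also higher on the arrays with bright spikes. The beta-actin ratio of 3' to 5' signal, which is higher where RNA or labelling is less complete, was 9.79, 10.7, 12.0 and 5.15 in the same order of groups. The same ratio for GAPDH was 2.84, 3.15, 2.46 and 2.32, also lowest on GFP vehicle but with a smaller spread and GFP FSH next to lowest. Foxo1 had signals of 3834.5, 960.9, 2862 and 8149 in that order, and whether its probe set reads the transgenes is not given in the sources used here. Of the 14 granulosa markers named on the array, 12 to 13 were above the floor on each array, with Esr2 below it on all 4, and the summed signals were 47037, 29952, 110311 and 36740.4 in the same order of groups. Of 12 markers of theca, stroma and smooth muscle, 8, 3, 5 and 7 were above the floor in the same order of groups, with summed signals of 24790.1, 1611, 2431 and 16928.5, and the theca genes Cyp17a1 and Insl3 were below the floor on all 4 arrays. Of 8 leukocyte markers 2 to 3 were above the floor, with sums of 4128.5, 1752, 1589 and 2725, and Ptprc, Cd68, Itgam, Cd3e and Cd79b were below it on all 4. Endothelial markers had 1 to 2 of 6 above the floor with sums of 310.4 to 623, and oocyte markers 2 to 3 of 5 with sums of 443 to 1200.0.

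Of the 7 genes, 6 were above the floor on all 4 arrays and Ccnd1 was above it on none. Ccnd2, the FSH-linked D cyclin, was brightest on GFP FSH and dimmest on FOXOA3-mDBD FSH. Its only probe set, 1370810_at, had a signal of 2831 on FOXOA3 FSH, 1132 on FOXOA3-mDBD FSH, 6379 on GFP FSH and 2878 on GFP vehicle. The FOXOA3 FSH and GFP vehicle signals were within 1.02-fold of each other, between the other 2. Compared with GFP FSH, Ccnd2 was 2.25-fold lower with FOXOA3 and 5.63-fold lower with FOXOA3-mDBD, and 2.22-fold higher on GFP FSH than on GFP vehicle. A ratio as low as that of FOXOA3-mDBD FSH over GFP FSH, or lower, was found for 1.31% of the 9748 genes measured there.

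Ccnd3, the D cyclin widely expressed in differentiated cells, had another order of arrays. Probe set 1369935_at gave 1006 on FOXOA3 FSH, 401 on FOXOA3-mDBD FSH, 377 on GFP FSH and 978 on GFP vehicle. FOXOA3 FSH and GFP vehicle were close to each other and high, and FOXOA3-mDBD FSH and GFP FSH were close to each other and low. Ccnd3 was 2.67-fold higher on FOXOA3 FSH than on GFP FSH and 2.59-fold lower on GFP FSH than on GFP vehicle. For Ccnd1, the D cyclin that growth factors induce in many cell types, the brightest of 3 probe sets, 1371643_at, had signals of 31.3, 20.4, 63.5 and 96.7 on FOXOA3 FSH, FOXOA3-mDBD FSH, GFP FSH and GFP vehicle. The other 2 probe sets of Ccnd1 lay between 2.2 and 28.0. All of these signals are below the floor, so that no fold is given for Ccnd1.

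Cdk4, the kinase partner of the D cyclins, differed on 1 array. Its probe set 1369950_at had a signal of 5319.5 on FOXOA3 FSH, 2582 on FOXOA3-mDBD FSH, 5619 on GFP FSH and 5479 on GFP vehicle. The FOXOA3 FSH, GFP FSH and GFP vehicle signals were within 1.06-fold of each other, and FOXOA3-mDBD FSH was 2.18-fold lower than GFP FSH. When each array was centred on its median this fold was 1.99, under the 2-fold line. Cdk2, which acts after the D cyclins, was read by 2 probe sets with similar patterns. The brighter, 1378874_at, had 576.5, 214, 302 and 536 on FOXOA3 FSH, FOXOA3-mDBD FSH, GFP FSH and GFP vehicle, and the other, 1394320_at, had 384, 211, 272 and 505 in the same order. On both probe sets FOXOA3 FSH and GFP vehicle were above the other 2 arrays.

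Cdkn1a, an inhibitor induced by p53 and other stress signals, had the widest difference of the 6 genes between FOXOA3 FSH and GFP FSH. Its probe set 1388674_at gave 5657 on FOXOA3 FSH, 1721 on FOXOA3-mDBD FSH, 1436 on GFP FSH and 3904 on GFP vehicle. It was 3.94-fold higher on FOXOA3 FSH than on GFP FSH, and 2.42% of the 9941 genes measured there had a ratio as high or higher. FOXOA3-mDBD FSH was 1.20-fold higher than GFP FSH, and GFP FSH was 2.72-fold lower than GFP vehicle. A second probe set, 1387391_at, was below the floor on every array, with signals of 63.6, 59.1, 23.7 and 96.4 on FOXOA3 FSH, FOXOA3-mDBD FSH, GFP FSH and GFP vehicle.

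Cdkn1b, the inhibitor known as a FOXO target, was higher on every FSH array than on GFP vehicle by its brighter probe set, 1373812_at. The signals were 6392 on FOXOA3 FSH, 7866 on FOXOA3-mDBD FSH, 5547 on GFP FSH and 3452 on GFP vehicle. FOXOA3-mDBD FSH was 1.42-fold and FOXOA3 FSH 1.15-fold higher than GFP FSH, both under 2-fold. The dimmer probe set, 1369192_at, disagreed on these. It had 167, 245, 299 and 168.5 in the same order of groups, which puts FOXOA3 FSH 1.79-fold lower than GFP FSH and within 1.01-fold of GFP vehicle. GFP FSH was higher than GFP vehicle on both probe sets, by 1.61-fold and 1.78-fold.

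**Figure D1:**
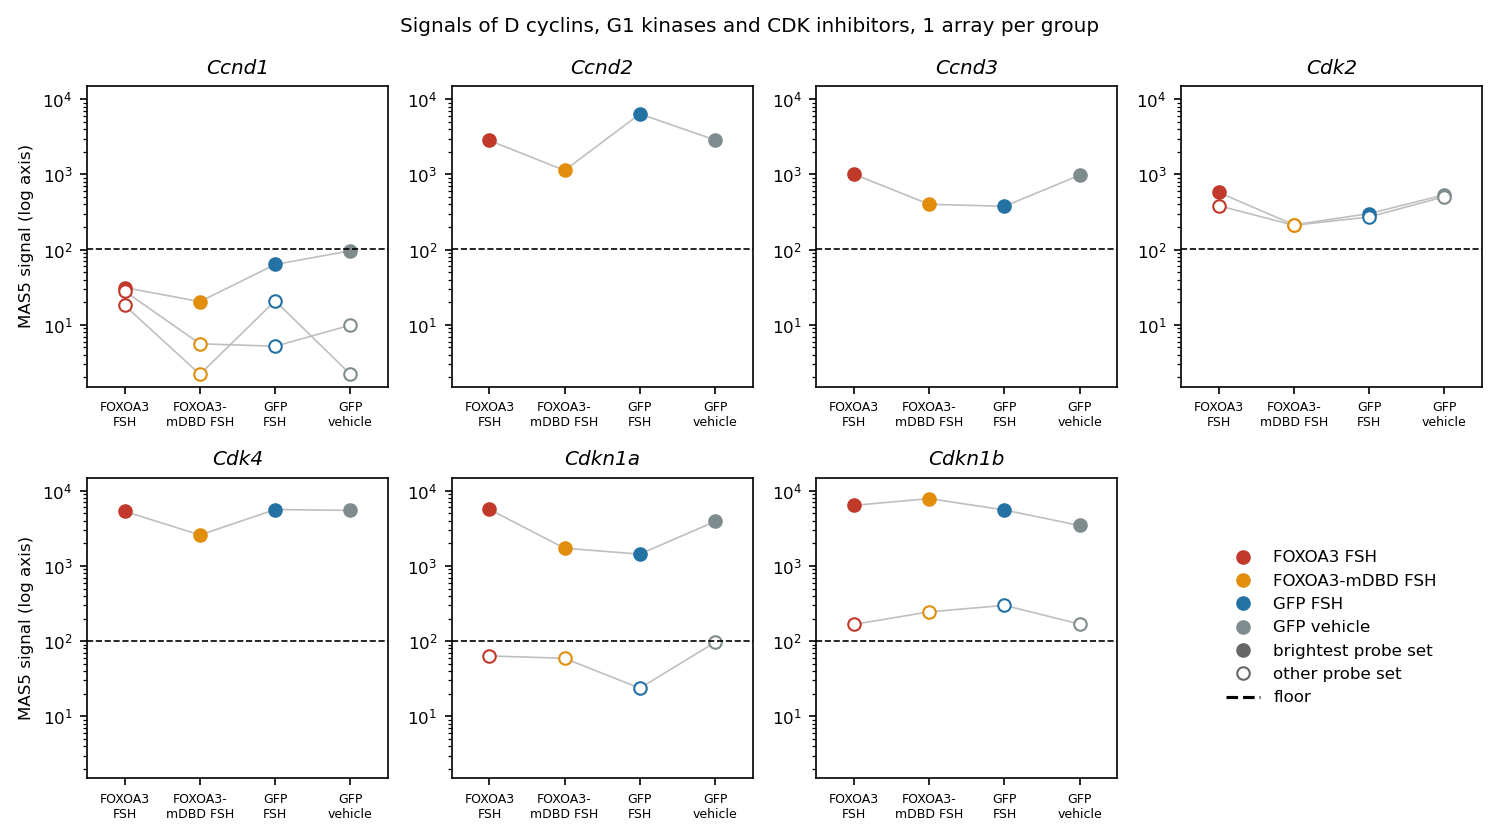
MAS5 signal on a log axis for every probe set of the 7 genes on the 4 arrays, left to right FOXOA3 FSH, FOXOA3-mDBD FSH, GFP FSH and GFP vehicle, with filled points for the brightest probe set of a gene, open points for the others, grey lines to guide the eye and a dashed line at the floor of 100.5. Ccnd2 is highest on GFP FSH at 6379, Ccnd3, Cdk2 and Cdkn1a are lower on FOXOA3-mDBD FSH and GFP FSH than on the other 2 arrays, and Ccnd1 stays below the floor.

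The effect of FSH in control cells is read from GFP FSH against GFP vehicle. Ccnd2 alone of the 6 measured genes was 2-fold higher, where 6.84% of 9578 measured genes were, and Ccnd3 and Cdkn1a were 2-fold lower, where 11.1% were. Cdk2 was 1.78-fold lower and Cdk4 had a ratio of 1.03. These arrays differ in spike state, so that hormone and spike state cannot be told apart in this comparison. The same holds for FOXOA3 FSH against GFP FSH, which asks what active FOXO1 does to FSH-treated cells. There Cdkn1a and Ccnd3 were 2-fold higher (background 11.1% of 9941 genes) and Ccnd2 was 2-fold lower (6.99%), Cdk2 was 1.91-fold higher and Cdk4 had a log2 ratio of -0.08. Both comparisons use the GFP FSH array, on opposite sides of the ratio, and their values are not independent.

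FOXOA3-mDBD FSH against GFP FSH compares 2 arrays with bright spikes and asks the same of the mutant defective in DNA binding. None of the 6 measured genes was 2-fold higher (background 12.5% of 9748 genes), and Ccnd2 and Cdk4 were 2-fold lower (19.1%). Cdk2 was 1.41-fold lower, and Ccnd3 and Cdkn1a were 1.06-fold and 1.20-fold higher. Of the 13 granulosa markers measured there, 10 were 2-fold lower and 1, Kitlg, was higher, at 3.72-fold. The lower ones included Cyp19a1 at 47.5-fold and the transcription factors Gata4 at 10.5-fold, Nr5a1 at 7.41-fold and Foxl2 at 3.56-fold. Foxl2 had 4297, 994, 3536 and 5546 on FOXOA3 FSH, FOXOA3-mDBD FSH, GFP FSH and GFP vehicle, so that FOXOA3-mDBD FSH was also below GFP vehicle. On FOXOA3 FSH against GFP FSH 8 of 13 granulosa markers were 2-fold lower (6.99% of all genes) and 0 higher (11.1%). On GFP FSH against GFP vehicle 7 were higher (6.84%) and 0 lower (11.1%). In these comparisons with GFP FSH most markers past 2-fold went the same way as Ccnd2, while Cdk4 differed only on FOXOA3-mDBD FSH. Against GFP vehicle they did not run parallel. With FOXOA3, 3 markers were 2-fold higher (5.32% of all genes) and 0 lower (4.01%), where Ccnd2 was within 1.02-fold. With FOXOA3-mDBD, 3 were higher (13.0%) and 5 lower (22.5%), where Ccnd2 was 2.54-fold lower. The part of the markers in the values of Ccnd2 and Cdk4 was not tested. FOXOA3 FSH against GFP vehicle compares the 2 arrays with dim spikes, and combines vector and hormone. Here 0 of 6 genes were 2-fold higher and 0 lower, against backgrounds of 5.32% and 4.01% of 9904 genes. By the brightest probe sets the ratios of Ccnd2, Ccnd3, Cdk2 and Cdk4 lay between -0.04 and 0.11 on the log2 scale. Cdkn1a was 1.45-fold higher and Cdkn1b 1.85-fold higher. The dimmer probe set of Cdk2 was at -0.40, in the opposite direction, and that of Cdkn1b at -0.01. With the mean of all probe sets the log2 ratio of Cdkn1a was -0.03, and with quantile normalization Cdkn1b reached 2.03-fold.

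FOXOA3 FSH against FOXOA3-mDBD FSH sets the active protein against its DNA-binding mutant. Of the 6 genes, 5 were 2-fold higher with FOXOA3 (background 19.0% of 10092 genes) and 0 were 2-fold lower (9.24%), Cdkn1b being the one within 2-fold, at 1.23-fold lower. Cdkn1a was 3.29-fold higher, Cdk2 2.70-fold, Ccnd3 2.51-fold, Ccnd2 2.50-fold and Cdk4 2.06-fold. By its dimmer probe set Cdk2 was 1.82-fold higher, under the 2-fold line. The median log2 ratio of all measured genes was 0.21 in this comparison, and the 6 genes had a median of 1.32. After median centring the backgrounds were 13.0% higher and 13.4% lower, and Cdk4 was 1.76-fold higher. With the mean of all probe sets, which takes in the Cdkn1a probe set below the floor, Cdkn1a was 1.88-fold higher and 4 genes were past 2-fold. FOXOA3-mDBD FSH against GFP vehicle had 5 of 6 genes 2-fold lower (background 22.5% of 9861 genes) and Cdkn1b 2-fold higher (13.0%). Those 5 ranged from 2.12-fold for Cdk4 to 2.54-fold for Ccnd2, with Cdkn1b 2.28-fold higher. After centring the backgrounds were 17.2% lower and 17.6% higher, and 3 genes stayed 2-fold lower, with Cdk4 at 1.81-fold and Cdkn1a at 1.94-fold. With the mean of all probe sets Cdkn1a was 1.92-fold lower and Cdkn1b 1.82-fold higher. Both of these comparisons cross the spike state and share the FOXOA3-mDBD FSH array.

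**Figure D2:**
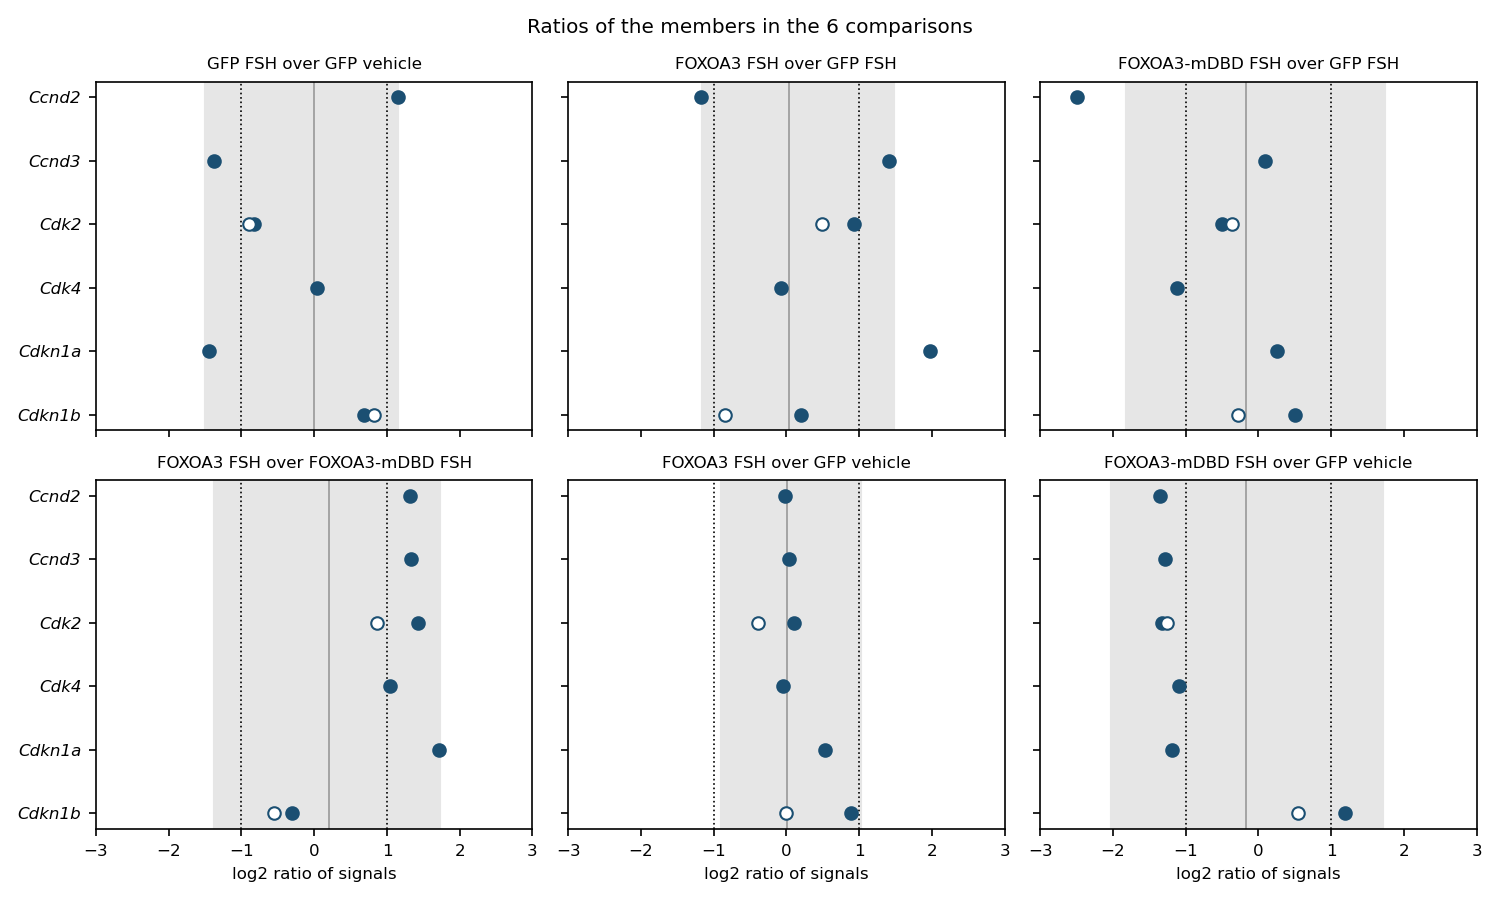
Log2 ratio of signals in the 6 comparisons for the 6 genes above the floor, with filled points for the brightest probe set and open points for the other, dotted lines at 2-fold, a grey band from the 5th to the 95th percentile of all measured genes and a grey line at their median. Outside the band are Ccnd2 at -2.49 in FOXOA3-mDBD FSH over GFP FSH, Ccnd2 at -1.17 and Cdkn1a at 1.98 in FOXOA3 FSH over GFP FSH, while every ratio of FOXOA3 FSH over GFP vehicle lies inside it.

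Ccnd3, Cdk2 and Cdkn1a shared a split of the arrays into pairs that matched the spike state. Each was lower on both FOXOA3-mDBD FSH and GFP FSH than on both FOXOA3 FSH and GFP vehicle, with a fold between the nearest arrays of the 2 pairs of 2.44 for Ccnd3, 1.78 for Cdk2 and 2.27 for Cdkn1a. The dimmer probe set of Cdk2 had a fold of 1.41. Within the pairs the order differed, since GFP FSH was above FOXOA3-mDBD FSH for Cdk2 and below it for Ccnd3 and Cdkn1a. This arrangement was noticed after the values were seen. Over all 10407 genes above the floor on at least 1 array, 7.43% were lower on those 2 arrays by 1.5-fold or more and 2.18% were higher. By 2-fold or more, which Ccnd3 and Cdkn1a reached, 3.06% were lower and 0.432% higher. Within the pairs the 3 genes differed by 1.06-fold to 1.41-fold (FOXOA3-mDBD FSH and GFP FSH) and by 1.03-fold to 1.45-fold (FOXOA3 FSH and GFP vehicle). The genes were picked for the split, so that smaller differences within the pairs largely follow from that choice. The summed signals of stroma and leukocyte markers were also higher on FOXOA3 FSH and GFP vehicle than on the other arrays, but single markers varied. Cd14, a monocyte marker and the brightest of the leukocyte list on every array, had 2577, 1012, 727 and 2167 on FOXOA3 FSH, FOXOA3-mDBD FSH, GFP FSH and GFP vehicle. Lyz2, the other leukocyte marker above the floor throughout, had 1266, 512, 592 and 376 and was lowest on GFP vehicle. In the stroma list the matrix gene Dcn had 12504, 206, 485 and 624 and the smooth muscle gene Tagln 3238, 728, 902 and 9167 in the same order, so that Dcn was high on FOXOA3 FSH and Tagln highest on GFP vehicle. The part of the spike state, of these markers and of the treatments in the pattern was not tested. Ccnd2, Cdk4 and Cdkn1b did not have this arrangement, and Ccnd2 and Cdk4 differed 2-fold within the bright spike state.

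**Figure D3:**
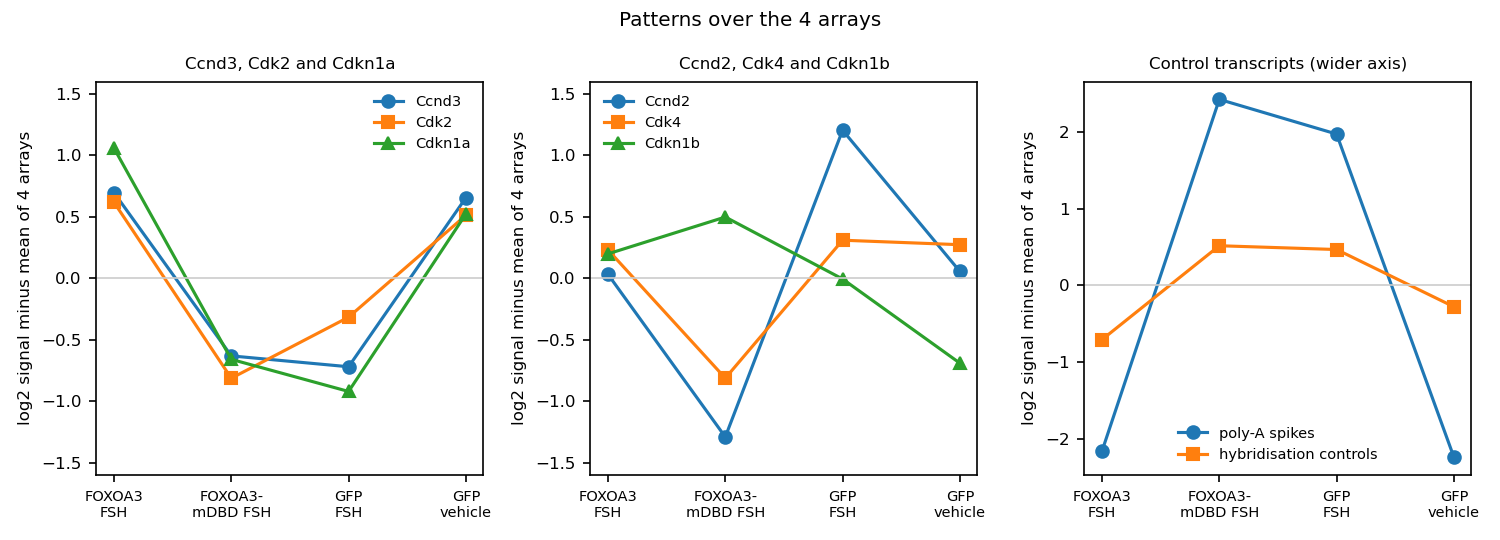
Log2 signal minus its mean over the 4 arrays for Ccnd3, Cdk2 and Cdkn1a (left), for Ccnd2, Cdk4 and Cdkn1b (middle) and for the geometric means of control transcripts (right, wider axis), with lines to guide the eye. The first 3 genes are low on FOXOA3-mDBD FSH and GFP FSH, where the poly-A spikes are bright at 539 and 395, and Ccnd2, Cdk4 and Cdkn1b do not have this split.

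Promoter sequence is shown for the 3 genes that shared this split and, beside them, for Cdkn1b, which did not have it. Each is the 250 bases before the annotated start from RefSeq on GRCr8, and 5 of the 7 genes matched the promoter table, the exceptions being Ccnd1 and Ccnd2. The windows are chr9:20897876-20898125 on the minus strand for Ccnd3, chr7:1721879-1722128 on the minus strand for Cdk2, chr20:7150682-7150931 on the plus strand for Cdkn1a and chr4:169491254-169491503 on the plus strand for Cdkn1b. Capitals mark every match to the motifs searched on both strands, and no matches overlap in these windows.
Ccnd3: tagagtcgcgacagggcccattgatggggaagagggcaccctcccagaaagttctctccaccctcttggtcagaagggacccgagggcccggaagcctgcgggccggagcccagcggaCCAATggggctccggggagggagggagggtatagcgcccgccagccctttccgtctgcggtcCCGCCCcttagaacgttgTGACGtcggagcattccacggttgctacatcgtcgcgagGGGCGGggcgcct
Cdk2: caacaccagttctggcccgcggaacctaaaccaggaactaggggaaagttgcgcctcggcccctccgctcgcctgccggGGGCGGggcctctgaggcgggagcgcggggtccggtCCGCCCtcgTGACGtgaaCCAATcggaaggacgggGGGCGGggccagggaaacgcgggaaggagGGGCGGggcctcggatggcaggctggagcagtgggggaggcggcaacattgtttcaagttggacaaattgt
Cdkn1a: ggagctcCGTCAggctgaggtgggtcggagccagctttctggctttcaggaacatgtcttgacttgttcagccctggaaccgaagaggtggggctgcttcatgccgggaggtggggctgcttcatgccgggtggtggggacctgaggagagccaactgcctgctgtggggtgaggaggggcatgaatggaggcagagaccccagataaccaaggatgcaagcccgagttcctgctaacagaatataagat
Cdkn1b: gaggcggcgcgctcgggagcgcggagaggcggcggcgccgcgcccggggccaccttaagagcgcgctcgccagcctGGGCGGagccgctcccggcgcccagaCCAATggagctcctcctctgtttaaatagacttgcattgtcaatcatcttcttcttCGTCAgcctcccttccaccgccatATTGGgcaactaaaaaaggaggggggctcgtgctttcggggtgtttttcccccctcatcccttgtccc
The motifs were the FOXO consensus GTAAACA, the insulin response sequence CAAAACA, the core of the cAMP response element TGACG, the E-box CACGTG, the CCAAT box, the GC box GGGCGG and an E2F site TTTNNCGC. The FOXO consensus, the insulin response sequence and the E2F site had 0 matches in these 4 windows and in that of Cdk4, where 3.21%, 5.46% and 4.11% of all 33469 promoters in the table held them. TGACG occurred 1 time in each of the 4 windows and 0 times in that of Cdk4, and in 18.2% of all promoters. The Ccnd3 and Cdk2 windows held 2 and 4 GC boxes and 1 CCAAT box each, and the Cdkn1a window held neither. Bases outside the windows and other starts of these genes were not searched. Cdkn1b had 2 CCAAT boxes and 1 GC box. The Cdk4 window held 3 E-boxes, against at least 1 in 5.59% of promoters. GC boxes were found in 30.5% and CCAAT boxes in 34.0% of promoters. The GC content of the windows was 67.2% for Ccnd3, 68.0% for Cdk2, 58.8% for Cdkn1a and 64.0% for Cdkn1b, with a median of 51.2% over all promoters.

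Ratios between members do not depend on the scaling of an array, since both signals come from it. Differences in spike state remain. All comparisons given here use the GFP FSH array, and only that with FOXOA3-mDBD FSH stays within the same spike state. Ccnd2 relative to Cdkn1b, a cyclin set against an inhibitor, was 2.60-fold lower on FOXOA3 FSH and 7.99-fold lower on FOXOA3-mDBD FSH than on GFP FSH, and 1.38-fold higher on GFP FSH than on GFP vehicle. Ccnd2 relative to its kinase partner Cdk4 was 2.13-fold lower with FOXOA3 and 2.59-fold lower with FOXOA3-mDBD than on GFP FSH. Ccnd2 relative to Ccnd3 was 6.01-fold lower with FOXOA3 and 5.99-fold lower with FOXOA3-mDBD than on GFP FSH, and 5.75-fold higher on GFP FSH than on GFP vehicle. For the 2 inhibitors, Cdkn1a relative to Cdkn1b was 3.42-fold higher with FOXOA3 and 1.18-fold lower with FOXOA3-mDBD than on GFP FSH, and 4.37-fold lower on GFP FSH than on GFP vehicle. These folds use the brightest probe set of each gene, and those against Cdkn1b depend on that choice. With the dimmer Cdkn1b probe set, an alternative chosen after seeing the data, Ccnd2 relative to Cdkn1b was 1.26-fold lower with FOXOA3 and 4.62-fold lower with FOXOA3-mDBD than on GFP FSH. Cdkn1a relative to Cdkn1b was then 7.04-fold higher with FOXOA3 and 1.46-fold higher with FOXOA3-mDBD, the last in the opposite direction.

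The other CDK inhibitors were led by the INK4 proteins, which bind Cdk4 and Cdk6 and keep D cyclins off them. Cdkn2d (p19) had signals of 560.0 on FOXOA3 FSH, 252.5 on FOXOA3-mDBD FSH, 47.1 on GFP FSH and 407 on GFP vehicle, the value on GFP FSH being below the floor. It was at least 5.57-fold higher with FOXOA3 and at least 2.51-fold higher with FOXOA3-mDBD than on GFP FSH, and at least 4.05-fold lower on GFP FSH than on GFP vehicle. Like Ccnd3 and Cdkn1a, Cdkn2d was lower on both arrays with bright spikes than on both with dim spikes. The part of the spike state in these values was not tested. Cdkn2c (p18) had 1264, 853, 519.9 and 323 in the same order, and was 2.43-fold higher on FOXOA3 FSH and 1.64-fold higher on FOXOA3-mDBD FSH than on GFP FSH. Cdkn1c (p57), the third Cip/Kip inhibitor, had 752, 759, 819.9 and 829, within 1.10-fold on all 4 arrays. Cdkn2a and Cdkn2b were below the floor on every array.

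Of 18 other measured G1/S regulators, 1 was 2-fold higher and 4 lower on FOXOA3 FSH than on GFP FSH, with a median log2 ratio of -0.32 beside 0.04 for all genes, of which 11.1% were higher and 6.99% lower. Cyclin E2 (Ccne2), an activator of Cdk2, had signals of 206, 253, 627 and 283 on FOXOA3 FSH, FOXOA3-mDBD FSH, GFP FSH and GFP vehicle, highest on GFP FSH like Ccnd2. The retinoblastoma relative Rbl1 was 2.51-fold lower with FOXOA3, the E2F repressor E2f7 at least 2.17-fold lower and the E2F partner Tfdp2 2.13-fold higher, the last within 2-fold after quantile normalization or centring. On FOXOA3-mDBD FSH against GFP FSH 3 of 18 were higher and 6 lower, and their median was -0.34 beside -0.16 for all genes, of which 12.5% were higher and 19.1% lower, so that the higher count is near the background. The higher members included 2 parts of the kinase complex that activates Cdk2 and Cdk4, Cdk7 at 5.45-fold and its cyclin Ccnh at 2.50-fold, with E2f5 at 3.36-fold. Cdk7 had signals of 2243, 12846, 2358 and 2352 on FOXOA3 FSH, FOXOA3-mDBD FSH, GFP FSH and GFP vehicle, so that the FOXOA3-mDBD FSH array stood apart from the others. E2f1 was 3.02-fold and E2f2 2.38-fold lower with FOXOA3-mDBD, where their signals of 112.3 and 108.5 were only just above the floor. On GFP FSH against GFP vehicle Ccne2 alone was 2-fold higher, at 2.22-fold (6.84% of 9578 genes), and 0 were 2-fold lower (11.1%). The median was 0.31, beside -0.003 for all genes. The kinase Cdk6 was below the floor on every array.

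Genes for the turnover of D cyclins and Cip/Kip proteins had medians near those of all genes: 1 of 14 was higher and 1 lower on FOXOA3 FSH, and 2 higher and 2 lower on FOXOA3-mDBD FSH, each against GFP FSH, with medians of -0.06 and -0.13. Over all genes 11.1% were higher and 6.99% lower with FOXOA3 and 12.5% and 19.1% with FOXOA3-mDBD, with medians of 0.04 and -0.16, so that the counts of this list are near the background and the genes named are single values. Ambra1, a substrate receptor for the destruction of D cyclins, had 648, 334, 154 and 475.5 on FOXOA3 FSH, FOXOA3-mDBD FSH, GFP FSH and GFP vehicle. It was thus lower on both arrays with bright spikes than on both with dim spikes, and the part of the spike state was not tested. It was 4.20-fold higher with FOXOA3 and 2.17-fold higher with FOXOA3-mDBD than on GFP FSH. On GFP FSH it was 3.08-fold lower than on GFP vehicle, where it alone of the 14 was 2-fold apart. In that comparison 6.84% of 9578 measured genes were higher and 11.1% lower. Dtl, which directs Cdkn1a to degradation, was 2.23-fold lower with FOXOA3. With FOXOA3-mDBD, Fbxw7, which marks cyclin E for degradation, was 2.88-fold higher, Cks1b, a cofactor for the destruction of Cdkn1b, 3.06-fold lower, and Fbxo31, a receptor for cyclin D1 degradation, 2.82-fold lower.

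Of 16 measured S-phase genes linked to E2F, 0 were higher and 8 lower on FOXOA3 FSH, and 2 higher and 9 lower on FOXOA3-mDBD FSH, each against GFP FSH, with medians of -0.91 and -1.08. The shares over all genes were 11.1% higher and 6.99% lower with FOXOA3, median 0.04, and 12.5% and 19.1% with FOXOA3-mDBD, median -0.16, and the 2 higher genes match the background share. On GFP FSH against GFP vehicle 4 were higher (6.84% of 9578 genes) and 0 lower (11.1%). The median was 0.81, beside -0.003 for all genes. Cyclin A2 (Ccna2), the later partner of Cdk2, had 121, 143, 807 and 318 on FOXOA3 FSH, FOXOA3-mDBD FSH, GFP FSH and GFP vehicle, brightest on GFP FSH like Ccnd2. The licensing factor Cdt1 was 3.65-fold lower with FOXOA3 and 4.11-fold lower with FOXOA3-mDBD, and the helicase subunit Mcm4 and the reductase subunit Rrm1 were the 2 higher with FOXOA3-mDBD, at 2.76-fold and 2.12-fold.

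Of 10 measured growth arrest genes linked to FOXO, 4 were higher and 0 lower on FOXOA3 FSH, and 3 higher and 0 lower on FOXOA3-mDBD FSH, each against GFP FSH, with medians of 0.79 and 0.47. All measured genes had shares of 11.1% higher and 6.99% lower with FOXOA3, and 12.5% higher and 19.1% lower with FOXOA3-mDBD, with medians of 0.04 and -0.16. On GFP FSH against GFP vehicle 0 were higher (6.84% of 9578 genes) and 5 lower (11.1%). The median was -0.89, beside -0.003 for all genes. Gadd45b, of a stress-induced family that acts in growth arrest, had 574.9, 404, 176 and 1266.5 on FOXOA3 FSH, FOXOA3-mDBD FSH, GFP FSH and GFP vehicle. It was 3.27-fold higher with FOXOA3 and 2.30-fold higher with FOXOA3-mDBD than on GFP FSH, and 7.21-fold lower on GFP FSH than on GFP vehicle. The repressor Bcl6, known to lower Ccnd2 in lymphocytes, was 3.82-fold higher with FOXOA3 and 2.52-fold with FOXOA3-mDBD, with signals of 3424, 2261, 897 and 1522. The stress protein Sesn3 was at least 4.57-fold higher with FOXOA3, and Sesn1 was 3.40-fold higher with FOXOA3-mDBD. Gadd45b and Sesn3 were lower on both arrays with bright spikes than on both with dim spikes, and the part of the spike state was not tested. Rbl2 (p130) and Ccng2, FOXO targets in other cells, were within 2-fold in all 6 comparisons.

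**Figure D4:**
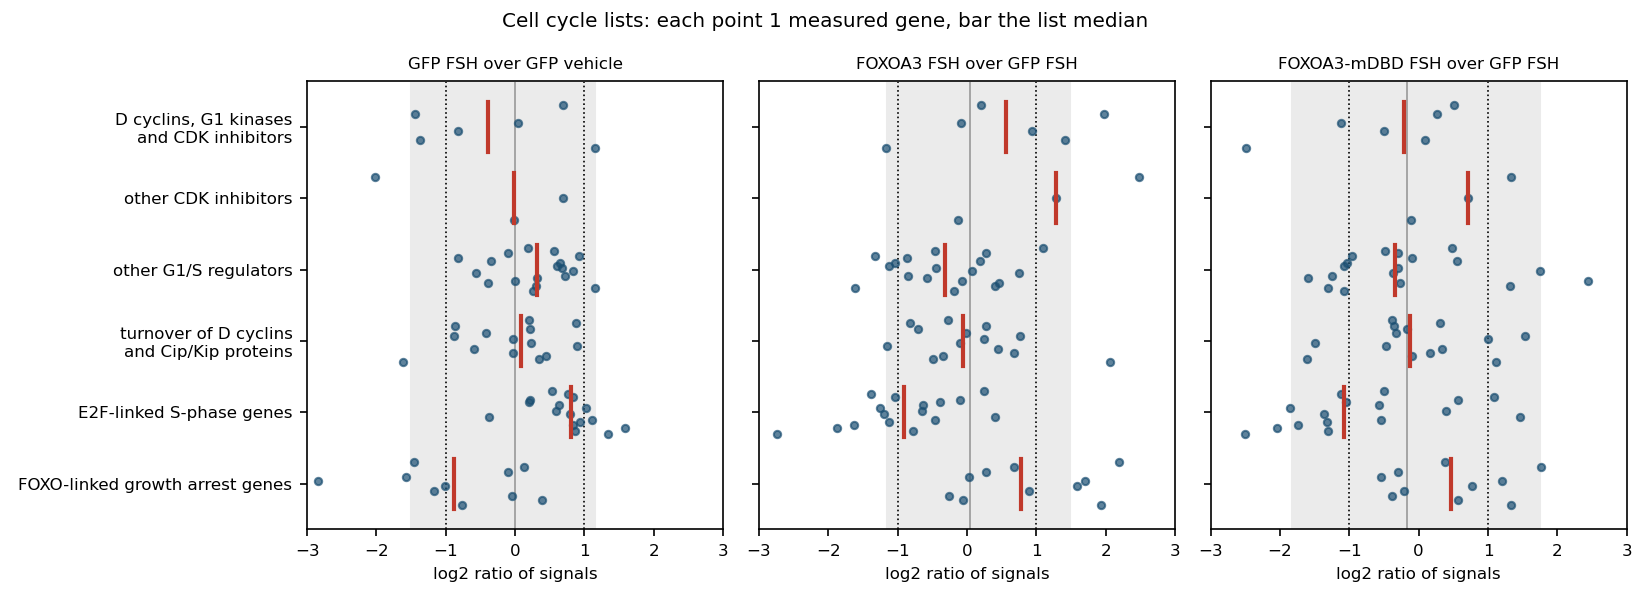
Log2 ratio of signals for every measured gene of 6 cell cycle lists in 3 comparisons that share the GFP FSH array, with 1 point per gene, a red bar at the list median, dotted lines at 2-fold, a grey band from the 5th to the 95th percentile of all measured genes and a grey line at their median. The S-phase list has its median at 0.81 with FSH and at -0.91 and -1.08 with the FOXO1 vectors, and the 6 D cyclin, kinase and inhibitor genes spread on both sides of 0 in each comparison.

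The genes nearest in pattern were found as the 3 with the smallest root mean square difference of centred log2 signals over the 4 arrays, among 8112 others above the floor throughout. For Ccnd2 they were Id3, an inhibitor of helix-loop-helix factors, at 0.02, Ifitm2 at 0.07 and Pacc1 at 0.07. Id3 had signals of 2946, 1125, 6489 and 2946 on FOXOA3 FSH, FOXOA3-mDBD FSH, GFP FSH and GFP vehicle. For Ccnd3 they were Wdfy1 at 0.02, Elavl1 at 0.05 and Dync1h1 at 0.05, for Cdk2 Cdc42ep1 at 0.01, Ssh2 at 0.03 and Fam220a at 0.04, and for Cdk4 Limd1 at 0.004, Traf7 at 0.02 and Pagr1 at 0.02. For Cdkn1a they were Zbtb42 at 0.04, Atf5 at 0.11 and Zswim8 at 0.11, and for Cdkn1b Cstf2 at 0.02, Tbc1d22al at 0.06 and Uty at 0.07. Among the members themselves, Ccnd3 was at 0.22 from Cdkn1a, where it was the 19th nearest of the 8112 genes. Seen from Ccnd3, Cdkn1a was the 131st nearest. Cdk2 was at 0.24 from Ccnd3 and its 152nd nearest, while Ccnd3 was the 351st nearest to Cdk2. Cdk2 and Cdkn1a were at 0.38, with ranks of 197 from Cdkn1a and 1204 from Cdk2. Ccnd2 was at 1.11 from Ccnd3.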

How the data were processed

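The authors' deposited values were microarray intensities, 1 per probe set and array, made with MAS5 (version not given in the sources used here) per the submitters' processing notes. The 2% trimmed means lay between 500.1 and 500.2 on the 4 arrays, and the values were used as deposited. That scaling removes any difference in the amount of RNA per cell. Of 31099 probe sets, 57 were controls, 20826 had 1 gene symbol in the platform annotation, 436 had several and 9780 none, and only the first kind was named. All 7 members matched current rat gene IDs. Each gene was represented by its brightest probe set, by mean signal. Signals were floored at 100.5 before log2, and a ratio was measured if the higher signal exceeded the floor. A ratio with the dimmer signal under the floor is written "at least". No test was possible with 1 array per group.

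The members and lists were chosen with earlier results of these data known. Named genes are all members, all other CDK inhibitors, up to 3 genes per list, comparison and direction among the largest ratios past 2-fold, and the nearest patterns. Rbl2, Ccng2, Cdk6 and the genes given only as below the floor were named after their values were seen. Steps were tested on simulated data with Python 3.11.15 and pandas 2.3.3. Alternatives were other floors, filters, normalizations, folds and the mean of probe sets.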

Additional observations from a re-analysis of the deposited data

How the results depend on the processing

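The 6 measured members exceed the floor on every array, so 122 of 212 alternative ratios, those under other floors or filters and single-probe-set genes under the probe set mean, equal the reported value by construction. Of the 90 that could differ, 82 kept their side of the 2-fold line, 8 crossed it and 0 of those past 2-fold changed sign. The ratio of Ccnd2 in FOXOA3-mDBD FSH over GFP FSH ran from -2.49 to -2.34, that of Cdkn1a in FOXOA3 FSH over GFP FSH from 1.70 to 2.13 and that of Ccnd2 in GFP FSH over GFP vehicle from 1.01 to 1.25. With the mean of probe sets, Cdkn1b in FOXOA3 FSH over GFP FSH was at -0.32 in place of 0.20. Of 96 alternative counts of members, 16 moved by over 1.5 times, and those and some smaller moves follow. With the floor at the 25th percentile, 27.4, Ccnd1 became measurable, 2.03-fold lower on FOXOA3 FSH than on GFP FSH, which made 2 genes lower there and 1 lower in FOXOA3 FSH over GFP vehicle. It was also 2.32-fold or more lower in FOXOA3-mDBD FSH over GFP FSH (3 genes lower, against 2) and 3.53-fold or more lower in FOXOA3-mDBD FSH over GFP vehicle (6 against 5). Quantile normalization gave 1 higher in FOXOA3 FSH over GFP vehicle. Centring gave 1 lower in FOXOA3-mDBD FSH over GFP FSH and 3 lower in FOXOA3-mDBD FSH over GFP vehicle, and the mean of probe sets gave 0 higher in the last. At 1.5-fold 2 genes were higher in GFP FSH over GFP vehicle and 1 in FOXOA3 FSH over GFP vehicle, while lower genes in GFP FSH over GFP vehicle and higher genes in FOXOA3 FSH over GFP FSH each numbered 3, against 2. At 3-fold 0 were higher and 0 lower in GFP FSH over GFP vehicle, 1 higher (Cdkn1a) and 0 lower in FOXOA3 FSH over GFP FSH, 1 lower (Ccnd2) in FOXOA3-mDBD FSH over GFP FSH, 1 higher (Cdkn1a) in FOXOA3 FSH over FOXOA3-mDBD FSH, and 0 higher and 0 lower in FOXOA3-mDBD FSH over GFP vehicle. The fold and floor alternatives change these counts by construction; for the others the cause was not tested. Over all genes, the counts per comparison and direction ran from 397 to 2215, from 609 to 2838 with the lower floor, from 484 to 2516 with no floor, from 283 to 1539 with the filter at the 75th percentile, from 1117 to 3402 at 1.5-fold and from 103 to 990 at 3-fold. With the filter at the 75th percentile, 13 other G1/S regulators had a median of 0.08 in FOXOA3 FSH over GFP FSH, in place of -0.32. No paired analysis was possible because each group has 1 array. MAS5 ratios are noisier for dim probe sets, which bears most on Ccnd1, Cdk2 and the dimmer probe sets of Cdkn1a and Cdkn1b.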

Other observations

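The probe set annotated to Uty, a gene of the Y chromosome, had signals of 3672, 4187, 3182 and 2099 on FOXOA3 FSH, FOXOA3-mDBD FSH, GFP FSH and GFP vehicle, while the animals are labelled female. Its pattern was among the 3 nearest to that of Cdkn1b. Atf5, a factor of the amino acid stress response, was the second nearest in pattern to Cdkn1a, with signals of 628, 219.9, 176 and 411 in the same order of groups.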
